A study of Ovis aries with 8 samples.

Results

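The interferon response and antigen presentation were followed through 39 genes in RNA sequencing libraries of the ewe mediobasal hypothalamus. The set holds 29 interferon-stimulated genes and 10 antigen presentation genes, given as a list of symbols, and each was taken from the row of the count table that carries its symbol, out of 33609 rows. Of the 39 symbols, 34 had a row. OAS1, OAS2, USP18, BST2 and SAMD9 had none and are not analysed here as members. RSAD2 had a row but too few reads to be tested. Thus 33 members were tested, 23 interferon-stimulated and 10 of antigen presentation.

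The pools came from food-restricted ewes and from well-fed ewes given food ad lib, all adult and of the Ile-de-France breed. Each group held 60 ewes, 30 in each of 2 years, and its RNA was mixed into 4 pools of 15 ewes, so that n counts pools and the spread is that between mixes of 15 ewes. The labels give neither the extent of the restriction, nor the year of a pool, nor whether the same ewe could contribute to several pools. The tissue is the whole mediobasal block at the base of the brain, in which neurons, glia, vessels and resident immune cells are sequenced together. Total counts were between 41261774 and 42964514 in food-restricted pools and between 36192025 and 48125991 in well-fed pools. CPM are TMM-scaled counts relative to library size, and log2 fold changes are food-restricted over well-fed. As a check of the feeding labels, AGRP, the hunger peptide of arcuate neurons, was at 193, 137, 146 and 144 CPM in food-restricted pools 1 to 4, against 38.2, 47.1, 60.7 and 56.9 CPM in well-fed pools 1 to 4. The first principal component of log2 CPM (34.7% of the variance) put food-restricted pools 1 and 2 with well-fed pools 3 and 4 on one side and the other 4 pools on the other, across the feeding groups.

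Interferons are secreted when a cell detects viral nucleic acid, and they act on neighbouring cells through surface receptors, the kinases JAK1 and TYK2, and STAT transcription factors. A complex that holds STAT2 and IRF9 switches on the interferon-stimulated genes, whose products block viral replication or sharpen detection. The same signals, interferon gamma above all, raise the machinery that cuts proteins into peptides and shows them on class I and class II molecules of the major histocompatibility complex. In brain, microglia and macrophages at the borders carry most of the class II machinery, and low constitutive expression of both programmes is usual in uninfected tissue.

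No member passed the test between food-restricted and well-fed pools. The edgeR quasi-likelihood adjusted p over all 18193 tested genes was 1 for each of the 33, and 0.0055% of all tested genes were called (1 gene, AGRP, and no gene with any 1 pool left out). At an unadjusted p under 0.05, 2 members were lower (ISG15 and TAP1) and 1 was higher (DTX3L), where 1.03% of all tested genes were lower and 0.671% higher at that level. The interferon-stimulated genes had 16 of 23 members lower in food-restricted pools and a median log2 fold change of -0.15. The antigen presentation genes had 5 of 10 lower and a median log2 fold change of 0.00. Over all tested genes 47.1% were lower and the median log2 fold change was 0.01. The members were tested after passing a filter on low counts, so these shares leave out RSAD2. In bulk tissue, fewer cells of a type and less RNA per cell cannot be told apart.

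**Figure D1:**
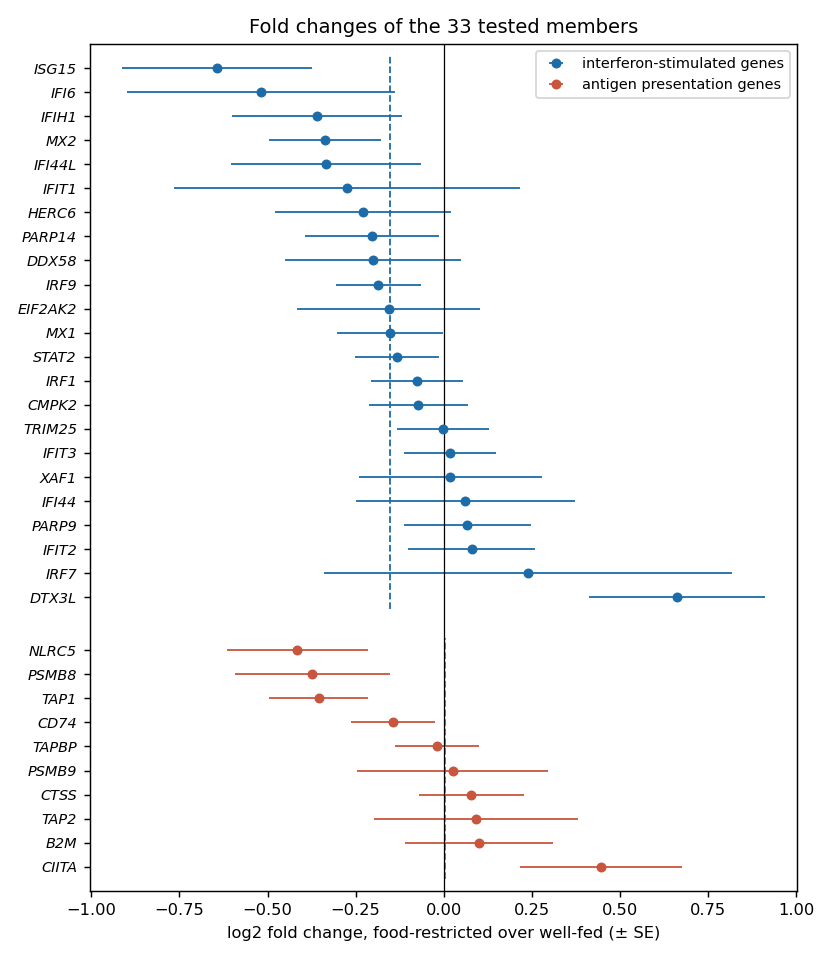
Log2 fold change of each tested member, food-restricted over well-fed (x axis, points with SE bars from the edgeR fit), with interferon-stimulated genes in the upper block and antigen presentation genes in the lower block and dashed lines at the block medians of -0.15 and 0.00. ISG15 at -0.64 and DTX3L at 0.66 lie at the 2 ends of the upper block, and most SE bars reach or come near 0.

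ISG15, the ubiquitin-like protein that is attached to other proteins during the response, was the interferon-stimulated gene with the lowest log2 fold change. ISG15 (gene ID 443057) was at 7.45, 17.8, 11.0 and 10.4 CPM in food-restricted pools 1 to 4, against 12.2, 23.0, 20.6 and 17.2 CPM in well-fed pools 1 to 4. Food-restricted pool 2 lay above well-fed pools 1 and 4, so the groups overlapped. ISG15 averaged 11.7 ± 4.38 CPM in the food-restricted group and 18.2 ± 4.70 CPM in the well-fed group (SD, n = 4 each). Its log2 fold change was -0.64 (SE 0.27), 1.56-fold lower, with an unadjusted edgeR p of 0.0393, an edgeR adjusted p of 1 and an exact two-sided permutation p of 0.0857 on log2 CPM. Leaving out 1 pool at a time kept the log2 fold change of ISG15 below 0, at -0.91 without food-restricted pool 2 and -0.48 without food-restricted pool 1.

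HERC6, the ligase that attaches ISG15 to its targets in mouse, was at 4.47, 3.52, 4.74 and 2.99 CPM in food-restricted pools 1 to 4, against 3.80, 6.52, 4.44 and 3.66 CPM in well-fed pools 1 to 4. Its groups overlapped, with a log2 fold change of -0.23 (SE 0.25). TRIM25, a ubiquitin ligase that activates the RNA sensor RIG-I, was at 26.5, 33.5, 32.0 and 34.5 CPM in food-restricted pools 1 to 4, against 34.5, 34.6, 29.4 and 28.3 CPM in well-fed pools 1 to 4. Its range was almost the same in both groups, at a log2 fold change of 0.00 (SE 0.13). USP18, which removes ISG15 from proteins, stood under a LOC name and was matched by its gene ID (101103965) to the RefSeq gene table. That row, named after its values were seen, was at 10.5, 9.77, 8.10 and 9.65 CPM in food-restricted pools 1 to 4, against 7.78, 9.90, 9.49 and 8.90 CPM in well-fed pools 1 to 4. Its log2 fold change was 0.08 (SE 0.15), so ISG15 and the enzyme that removes it lay on different sides of 0 in the fit, a difference that was not tested.

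The antiviral effectors had 7 of 11 tested members lower and a median log2 fold change of -0.15. MX2, a dynamin-like GTPase that blocks viral nuclear entry in human cells, was at 29.9, 38.2, 42.4 and 38.8 CPM in food-restricted pools 1 to 4, against 55.3, 54.8, 37.6 and 40.8 CPM in well-fed pools 1 to 4. Well-fed pools 1 and 2 were the highest and food-restricted pool 1 the lowest, and the other 5 pools were mixed between 37.6 and 42.4 CPM. The log2 fold change of MX2 was -0.34 (SE 0.16). MX1, its neighbour and the better known antiviral GTPase, was at 49.6, 77.3, 58.0 and 59.1 CPM in food-restricted pools 1 to 4, against 66.1, 75.5, 69.7 and 59.9 CPM in well-fed pools 1 to 4, highest in food-restricted pool 2, and its log2 fold change was -0.15 (SE 0.15).

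IFI6, a small membrane protein that limits cell death and flavivirus replication, was at 94.4, 121, 40.3 and 50.9 CPM in food-restricted pools 1 to 4, against 52.2, 103, 139 and 145 CPM in well-fed pools 1 to 4. Its 3.60-fold range over the pools cut across the groups, with food-restricted pools 3 and 4 and well-fed pool 1 low and all others at or above 94.4 CPM. The log2 fold change of IFI6 was -0.52 (SE 0.38). IFI44L, an interferon-induced protein whose action is less understood, was at 4.26, 6.32, 7.49 and 6.88 CPM in food-restricted pools 1 to 4, against 8.81, 11.3, 6.15 and 5.18 CPM in well-fed pools 1 to 4, highest in well-fed pool 2, with a log2 fold change of -0.34 (SE 0.27). IFI44, which lies beside it, was highest in food-restricted pool 3 (12.1 CPM) and had a log2 fold change of 0.06 (SE 0.31).

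Members of the IFIT family bind foreign RNA, and they did not share a pattern. IFIT1 was at 0.866, 5.70, 4.99 and 5.19 CPM in food-restricted pools 1 to 4, against 6.06, 6.13, 5.67 and 2.37 CPM in well-fed pools 1 to 4. Food-restricted pool 1 and well-fed pool 4 stood below all others, which lay between 4.99 and 6.13 CPM, and the log2 fold change of -0.27 (SE 0.49) turned to 0.07 without food-restricted pool 1. The adjacent IFIT2 and IFIT3 had log2 fold changes of 0.08 (SE 0.18) and 0.02 (SE 0.13), and in food-restricted pool 1 they were at 17.7 and 21.7 CPM, within their well-fed ranges. IFIT3 varied by 1.31-fold over all 8 pools and IFIT1 by 7.08-fold. The remaining effectors CMPK2, XAF1 and EIF2AK2 had log2 fold changes between -0.16 and 0.02. RSAD2 (viperin), the enzyme that makes a chain-terminating nucleotide, had 0, 16, 1 and 1 counts in food-restricted pools 1 to 4, against 4, 0, 4 and 5 counts in well-fed pools 1 to 4. Most of its reads in the food-restricted group came from pool 2, and no fold is given.

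The RNA sensors were both lower in the fit. DDX58, which encodes RIG-I, was at 13.4, 14.9, 21.8 and 17.7 CPM in food-restricted pools 1 to 4, against 27.0, 23.1, 13.2 and 14.8 CPM in well-fed pools 1 to 4. Well-fed pools 1 and 2 and food-restricted pools 3 and 4 were its 4 highest pools, and the log2 fold change of -0.20 (SE 0.25) became 0.00 without well-fed pool 1. IFIH1, which encodes MDA5 and detects long double-stranded RNA, was at 11.0, 7.30, 17.4 and 11.1 CPM in food-restricted pools 1 to 4, against 16.3, 16.8, 14.6 and 12.2 CPM in well-fed pools 1 to 4, and its log2 fold change was -0.36 (SE 0.24). The level of IFIH1 was lowest in food-restricted pool 2 and highest in food-restricted pool 3, so the range within that group took in all 4 well-fed pools.

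Of the 4 transcription factors, IRF9 was at 65.2, 73.0, 58.4 and 54.4 CPM in food-restricted pools 1 to 4, against 67.4, 81.3, 68.6 and 68.2 CPM in well-fed pools 1 to 4, with a log2 fold change of -0.19 (SE 0.12). STAT2, its partner in the complex that binds interferon-stimulated promoters, was at 63.0, 72.6, 77.1 and 79.4 CPM in food-restricted pools 1 to 4, against 88.4, 87.5, 76.4 and 68.1 CPM in well-fed pools 1 to 4, a log2 fold change of -0.13 (SE 0.12). IRF1, which drives class I and class II genes under interferon gamma, was at 20.2, 25.2, 20.5 and 23.3 CPM in food-restricted pools 1 to 4, against 24.1, 25.1, 23.7 and 21.1 CPM in well-fed pools 1 to 4, a log2 fold change of -0.08 (SE 0.13). The level of IRF1 varied by 1.25-fold over the 8 pools, the smallest range among the members.

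IRF7, the amplifier of type I interferon production, varied by 5.97-fold, and its range did not follow the feeding groups. IRF7 was at 25.2, 34.9, 8.87 and 9.27 CPM in food-restricted pools 1 to 4, against 5.84, 7.12, 28.0 and 25.3 CPM in well-fed pools 1 to 4. Food-restricted pools 1 and 2 and well-fed pools 3 and 4 all lay at or above 25.2 CPM, and the other 4 pools at or below 9.27 CPM. These are the pools that the first principal component set apart, and the values that make up that component include IRF7 itself. The log2 fold change of IRF7 between the feeding groups was 0.24 (SE 0.58), and it ran from -0.18 to 0.63 when single pools were left out, the first without food-restricted pool 2 and the second without well-fed pool 3.

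DTX3L, PARP9 and PARP14 lie side by side in the RefSeq sheep assembly, and DTX3L was the interferon-stimulated gene with the highest log2 fold change. DTX3L, a ubiquitin ligase that works as a complex with PARP9, was at 4.57, 2.75, 5.34 and 3.70 CPM in food-restricted pools 1 to 4, against 2.70, 2.91, 2.25 and 2.48 CPM in well-fed pools 1 to 4. Food-restricted pools 1, 3 and 4 lay above every well-fed pool, and food-restricted pool 2 lay within the well-fed range. DTX3L averaged 4.09 ± 1.12 CPM in the food-restricted group and 2.59 ± 0.284 CPM in the well-fed group (SD, n = 4 each). Its log2 fold change was 0.66 (SE 0.25), 1.58-fold higher, with an unadjusted edgeR p of 0.0244, an edgeR adjusted p of 1 and an exact two-sided permutation p of 0.0571. PARP9 was at 16.4, 11.4, 14.3 and 12.1 CPM in food-restricted pools 1 to 4, against 14.9, 14.0, 9.67 and 13.3 CPM in well-fed pools 1 to 4, a log2 fold change of 0.07 (SE 0.18). PARP14, a mono-ADP-ribosyltransferase, was at 6.23, 9.05, 10.6 and 9.53 CPM in food-restricted pools 1 to 4, against 11.4, 10.4, 8.53 and 10.4 CPM in well-fed pools 1 to 4. Its log2 fold change was -0.20 (SE 0.19).

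The log2 ratio of PARP9 to DTX3L was 1.83, 2.04, 1.41 and 1.70 in food-restricted pools 1 to 4, against 2.44, 2.25, 2.08 and 2.40 in well-fed pools 1 to 4. A ratio within a pool depends on the lengths of both genes, which are the same in every pool, so only its difference between pools is read here. The highest food-restricted ratio (2.04) and the lowest well-fed ratio (2.08) nearly met. The pair was chosen after its values were seen, carries the same deviation of DTX3L as its fold change, and was not tested. The strand setting of the counting is not given in the sources used here, so reads of genes that touch or overlap may have been shared.

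**Figure D2:**
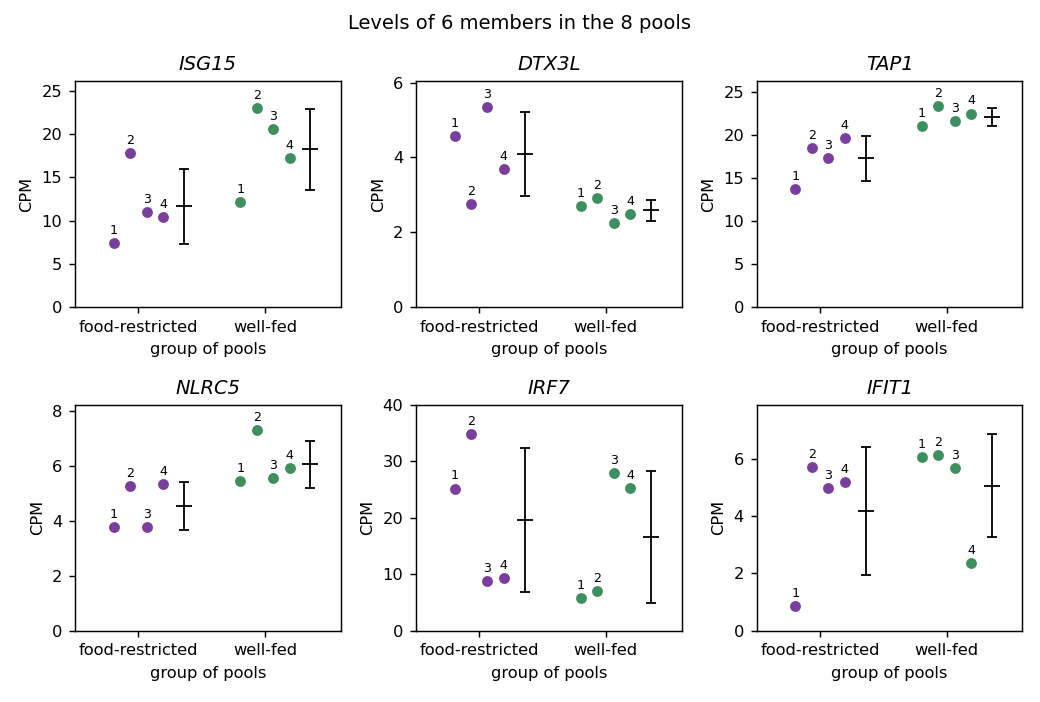
CPM (y axis, starting at 0) of 6 members in the 4 food-restricted and 4 well-fed pools, each point numbered by its pool, with the mean and SD of the group beside the points. TAP1 and NLRC5 have no overlap between groups, ISG15 and DTX3L overlap through food-restricted pool 2, IRF7 splits each group into 2 high and 2 low pools, and IFIT1 has 1 low pool in each group.

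Class I presentation held the 2 members whose groups did not overlap, TAP1 and NLRC5, both lower in food-restricted pools, a pattern shown by 1.1% of all tested genes (0.495% were higher without overlap). TAP1 and TAP2 form the transporter that carries peptides into the endoplasmic reticulum. TAP1 (gene ID 101115580) was at 13.7, 18.5, 17.3 and 19.7 CPM in food-restricted pools 1 to 4, against 21.0, 23.4, 21.6 and 22.5 CPM in well-fed pools 1 to 4. Every food-restricted pool was under the lowest well-fed pool, with means of 17.3 ± 2.58 CPM in the food-restricted group and 22.1 ± 1.03 CPM in the well-fed group (SD, n = 4 each). The log2 fold change of TAP1 was -0.36 (SE 0.14), or 1.28-fold lower, with an unadjusted edgeR p of 0.0303, an edgeR adjusted p of 1 and an exact two-sided permutation p of 0.0286, the smallest that 4 pools against 4 allow. NLRC5, the transactivator of class I genes (gene ID 101119413), was at 3.77, 5.27, 3.78 and 5.34 CPM in food-restricted pools 1 to 4, against 5.47, 7.30, 5.55 and 5.91 CPM in well-fed pools 1 to 4. It also had no overlap, with 4.54 ± 0.882 CPM in the food-restricted group and 6.06 ± 0.852 CPM in the well-fed group (SD, n = 4 each), at a log2 fold change of -0.42 (SE 0.20), 1.33-fold lower, an unadjusted edgeR p of 0.0657, an edgeR adjusted p of 1 and the same exact permutation p of 0.0286. None of the 23 interferon-stimulated genes was without overlap in either direction.

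The other class I genes did not share this pattern. TAP2 was at 50.3, 73.8, 35.4 and 38.0 CPM in food-restricted pools 1 to 4, against 31.4, 32.0, 65.6 and 56.6 CPM in well-fed pools 1 to 4, with a log2 fold change of 0.09 (SE 0.29). Like IRF7, it had food-restricted pools 1 and 2 and well-fed pools 3 and 4 as its 4 highest, and it lies in one block with TAP1. The block runs TAP2, PSMB8, TAP1, PSMB9 in the RefSeq assembly, with no other protein-coding gene between them.

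PSMB8 and PSMB9 encode subunits of the immunoproteasome, which cuts proteins into peptides for class I. PSMB8 was at 18.6, 17.8, 9.92 and 14.9 CPM in food-restricted pools 1 to 4, against 14.5, 20.6, 21.5 and 22.6 CPM in well-fed pools 1 to 4, lowest in food-restricted pool 3, with a log2 fold change of -0.37 (SE 0.22). PSMB9 ranged from 6.46 CPM in food-restricted pool 3 to 15.9 CPM in food-restricted pool 1, and its log2 fold change was 0.03 (SE 0.27). Log2 fold changes along the block were thus 0.09, -0.37, -0.36 and 0.03. TAPBP (tapasin), which holds the transporter to empty class I molecules, was at 107, 120, 91.0 and 98.0 CPM in food-restricted pools 1 to 4, against 93.4, 100, 116 and 112 CPM in well-fed pools 1 to 4, a log2 fold change of -0.02 (SE 0.12).

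B2M, the light chain of class I molecules, was at 237, 154, 287 and 176 CPM in food-restricted pools 1 to 4, against 169, 250, 162 and 216 CPM in well-fed pools 1 to 4. Its highest and its lowest value both came from the food-restricted group (pools 3 and 2), and the log2 fold change was 0.10 (SE 0.21). The table has another row, under a LOC name, that the RefSeq table calls B2M, at 342, 214, 364 and 275 CPM in food-restricted pools 1 to 4, against 227, 371, 255 and 353 CPM in well-fed pools 1 to 4. Reads shared by near-identical copies can be split between these rows, and B2M is uncertain for that reason. With the counts of both rows added, a step chosen after seeing the data, the log2 fold change was 0.03 (SE 0.20).

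Class II presentation had 1 of 3 members lower. CIITA, the master regulator of class II genes, was at 4.21, 4.62, 3.20 and 4.01 CPM in food-restricted pools 1 to 4, against 2.26, 2.63, 3.57 and 3.32 CPM in well-fed pools 1 to 4. Food-restricted pools 1, 2 and 4 lay above all well-fed pools and food-restricted pool 3 did not, and the log2 fold change was 0.45 (SE 0.23), with an unadjusted edgeR p of 0.0844 and an edgeR adjusted p of 1. CD74, the invariant chain that guides class II molecules, was at 253, 262, 220 and 282 CPM in food-restricted pools 1 to 4, against 239, 292, 262 and 331 CPM in well-fed pools 1 to 4, a log2 fold change of -0.14 (SE 0.12). CTSS (cathepsin S), which trims that chain, was at 95.6, 73.9, 118 and 102 CPM in food-restricted pools 1 to 4, against 101, 99.0, 78.8 and 90.4 CPM in well-fed pools 1 to 4, a log2 fold change of 0.08 (SE 0.15). The regulator and the chain it controls thus lay on different sides of 0 in the fit, and this difference was not tested. Rows for class II molecules themselves, named after their values were seen, had log2 fold changes of -0.15 (SE 0.15) for OVAR-DRB1, -0.34 (SE 0.39) for DQA and 0.04 (SE 0.30) for DQB. These are polymorphic members of a multigene family whose reads may be split between copies.

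The level of the interferon-stimulated genes as a group stood apart in a few pools. As the median over the 23 members of log2 CPM minus the member's mean over 8 pools, it was -0.22, 0.03, 0.03 and 0.01 in food-restricted pools 1 to 4, against 0.13, 0.28, -0.10 and -0.11 in well-fed pools 1 to 4. Food-restricted pool 1 was the lowest and well-fed pools 1 and 2 were the highest, while well-fed pools 3 and 4 lay below food-restricted pools 2, 3 and 4. Of the 23 members, 10 had their lowest value in food-restricted pool 1 (43.5%), where 16.7% of all tested genes had theirs. In well-fed pool 2, 8 had their highest value (34.8%), where 11.6% of all tested genes had theirs. The 10 were ISG15, MX1, MX2, IFIT1, IFI44, IFI44L, IRF1, STAT2, PARP14 and TRIM25. The 8 were ISG15, IFIT1, IFIT3, IFI44L, IRF9, CMPK2, HERC6 and TRIM25.

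The antigen presentation genes ran differently over the pools. The same measure over their 10 members was 0.08, 0.00, -0.23 and 0.03 in food-restricted pools 1 to 4, against -0.20, 0.11, 0.12 and 0.19 in well-fed pools 1 to 4. Food-restricted pool 3 and well-fed pool 1 were low here, 1 in each group, and food-restricted pool 1 was not. Well-fed pool 1 was thus high for the interferon-stimulated genes and low for antigen presentation. Over all tested genes the measure lay between 0.00 and 0.03 in every pool.

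**Figure D3:**
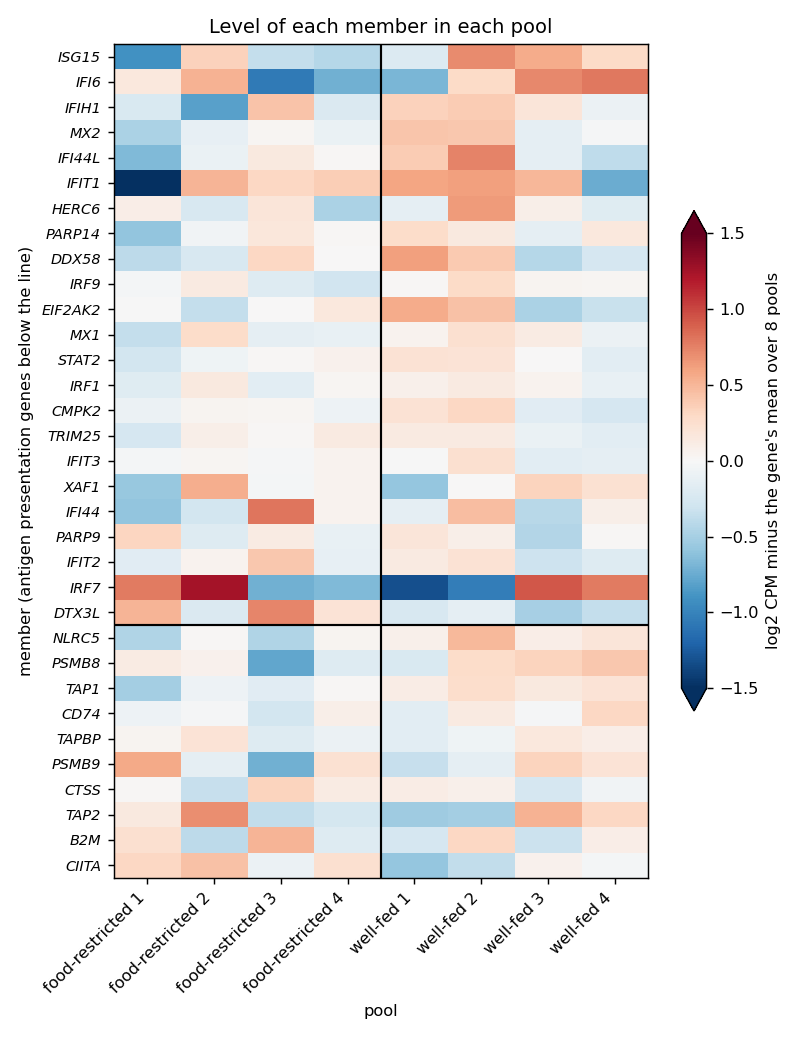
Log2 CPM minus the gene's mean over 8 pools (colour, clipped at 1.5 either way) for the 33 tested members (rows, antigen presentation genes below the line) in the food-restricted and well-fed pools (columns). The column of food-restricted pool 1 is mostly blue in the upper block and that of well-fed pool 2 mostly red. The row of IRF7 is high in food-restricted pools 1 and 2 and well-fed pools 3 and 4, and low in the others.

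The gap between both groups of genes depended on which pools were in the fit. With all 8 pools, the median log2 fold change of the interferon-stimulated genes minus that of the antigen presentation genes was -0.16. The difference between the levels of both lists in a pool had an SD of 0.272 between pools of a group, which is larger than this gap. The gap was 0.02 without food-restricted pool 1, 0.00 without well-fed pool 1 and 0.00 without well-fed pool 2, and between -0.24 and -0.05 without any 1 of the other 5 pools. The interferon-stimulated median itself stayed below 0 in all 8 of these fits, at -0.06 without food-restricted pool 1, -0.08 without well-fed pool 1, -0.04 without well-fed pool 2 and -0.20 without well-fed pool 4. The antigen presentation median ran from -0.11 without food-restricted pool 2 to 0.04 without well-fed pool 4. For the 2 sets of pools on either side of the first principal component, a split drawn from these same data, another measure was used. It is the difference of mean log2 CPM between food-restricted and well-fed pools of the set, not the edgeR log2 fold change. Among the 4 pools that the component set apart (food-restricted 1 and 2, well-fed 3 and 4), the interferon-stimulated median was -0.02 and 12 of 23 members were lower. Among the other 4 pools it was -0.26 and 19 of 23 were lower. The antigen presentation median was -0.03 and -0.02 in these 2 sets of pools, and that of all tested genes 0.00 and 0.01. These differences of mean log2 CPM in the 2 sets of pools, in the same order, were -0.70 and -0.64 for ISG15, 0.58 and 0.66 for DTX3L, -0.47 and -0.26 for TAP1, -0.36 and -0.49 for NLRC5, and 0.16 and 0.49 for IRF7.

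**Figure D4:**
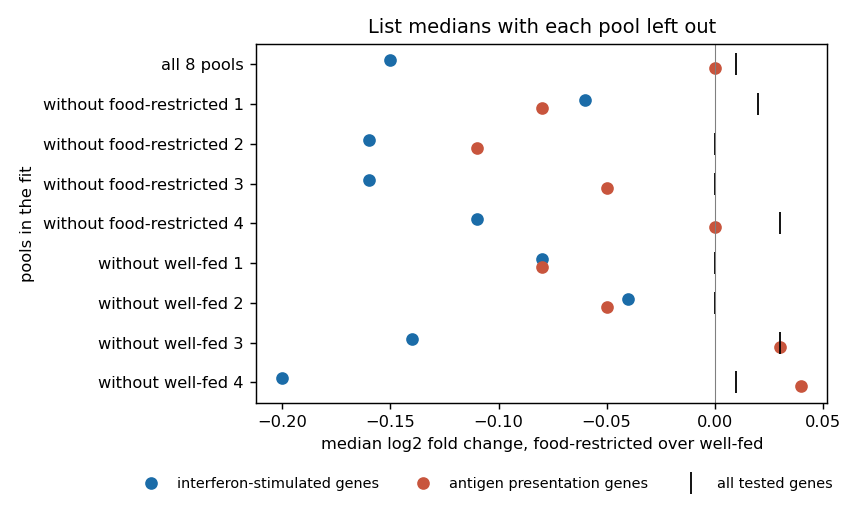
Median log2 fold change, food-restricted over well-fed (x axis), of the 23 interferon-stimulated genes, the 10 antigen presentation genes and all tested genes, with all 8 pools and with each pool left out in turn (y axis). The medians of both groups of genes meet when food-restricted pool 1, well-fed 1 or well-fed 2 is left out, and lie farthest apart without well-fed pool 4.

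Member by member, 13 of 23 interferon-stimulated genes and 5 of 10 antigen presentation genes kept the sign of their log2 fold change in all 8 fits with 1 pool left out, where 45.9% of all tested genes did. Of the 13, 12 were lower and DTX3L was higher. The 5 were TAP1, NLRC5, PSMB8 and CD74, all lower, and CIITA, which was higher. IRF7, TAP2 and TAPBP had food-restricted pools 1 and 2 and well-fed pools 3 and 4 as their 4 highest pools, a pattern held by 14.2% of all tested genes. IFI44L, DDX58, STAT2, EIF2AK2 and CTSS had these as their 4 lowest, as did 8.93% of all tested genes.

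The wider pathway gave no call. Among 14 interferon receptors and kinases 11 were lower, with a median log2 fold change of -0.06. IFNAR1, a chain of the type I receptor, was at 46.7, 70.9, 54.3 and 59.8 CPM in food-restricted pools 1 to 4, against 77.1, 63.9, 75.4 and 62.5 CPM in well-fed pools 1 to 4, a log2 fold change of -0.27 (SE 0.14). TYK2, the kinase bound to it, had a log2 fold change of -0.17 (SE 0.12), the receptor chain IFNLR1 one of -0.28 (SE 0.24) and PIAS1, a SUMO ligase, one of 0.12 (SE 0.14).

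Genes that induce interferon were balanced, with 7 of 15 tested members lower and a median of 0.01. TMEM173 (STING, the adaptor of DNA sensing) was at 23.3, 19.3, 22.2 and 22.2 CPM in food-restricted pools 1 to 4, against 18.9, 18.1, 15.2 and 19.1 CPM in well-fed pools 1 to 4. Every food-restricted pool was over the highest well-fed pool, and the log2 fold change was 0.28 (SE 0.13), with an unadjusted edgeR p of 0.0559, an edgeR adjusted p of 1 and an exact two-sided permutation p of 0.0286. The kinase IKBKE had a log2 fold change of 0.35 (SE 0.23), the adaptor MAVS -0.14 (SE 0.13) and TLR9, under 1 CPM in every pool, 0.87 (SE 0.67). CGAS was listed at 0 in all pools, which allows up to 3 counts in each.

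Of 8 interferon genes looked up by symbol, 3 had a row, each with few or no reads, and the other 5, IFNB1 among them, are not analysed here. IFNG had 3 counts in food-restricted pool 2 and 0 in the other 7 pools. IFNE had 4 counts in well-fed pool 2 and 0 in the other 7. IFNK was listed at 0 in all 8, for which 3 counts are between 0.0625 and 0.0845 CPM.

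Further class I machinery had 11 of 13 members lower and a median log2 fold change of -0.08. CALR (calreticulin), the chaperone that folds class I chains among many other proteins, was at 423, 432, 431 and 406 CPM in food-restricted pools 1 to 4, against 549, 562, 454 and 526 CPM in well-fed pools 1 to 4. Its groups did not overlap, with a log2 fold change of -0.31 (SE 0.09), an unadjusted edgeR p of 0.00793 and an edgeR adjusted p of 1. PDIA3, its partner in the loading complex, had a log2 fold change of -0.19 (SE 0.15), the transcription factor RFX5 -0.24 (SE 0.18) and IRF2 -0.15 (SE 0.11). The 5 tested genes on the list of further class II machinery had 4 lower and a median of -0.06. OVAR-DRB1, DQA and DQB are not counted among them. On the list were the cathepsins CTSB at -0.11 (SE 0.09) and CTSD at 0.13 (SE 0.27), the protease LGMN at -0.06 (SE 0.09) and the reductase IFI30 at -0.11 (SE 0.21).

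Markers of the cells that could carry these transcripts were read beside them. Neuropeptides of the mediobasal hypothalamus (AGRP, NPY, POMC, KISS1, TAC3 and GHRH) were all detected above the filter. Pituitary cell markers (5 tested) summed to between 1060 and 1660 CPM in food-restricted pools, against 973 and 1790 CPM in well-fed pools. Of these, LHB and PITX1 had food-restricted pools 1 and 2 and well-fed pools 3 and 4 as their 4 highest, and CGA, PRL and TSHB did not. LHB ranged from 8.55 CPM in well-fed pool 1 to 117 CPM in well-fed pool 4. PRL and CGA were highest in food-restricted pool 3. The 4 highest pools of LHB and PITX1 were also those of 2 of 6 oligodendrocyte markers (MBP and MAG). They were those of POMC, RBFOX3 (neurons), FOXJ1 (ependymal cells) and COL1A1 (meninges) too, but of 0 of 6 astrocyte and 0 of 11 microglia markers. Of all tested genes, 14.2% had this pattern. The part of any of these cells in the IRF7 and TAP2 values was not tested. The 11 tested microglia markers, among them AIF1, CX3CR1 and P2RY12, summed to between 595 and 669 CPM in food-restricted pools, against 574 and 737 CPM in well-fed pools, with 6 of 11 lower and a median log2 fold change of -0.03. The 5 tested markers of perivascular macrophages summed to between 27.8 and 49.1 CPM in food-restricted pools, against 25.7 and 51.7 CPM in well-fed pools, with 4 of 5 lower and a median log2 fold change of -0.28. STAB1, a scavenger receptor, made up much of this sum, at 22.7, 36.2, 12.5 and 15.3 CPM in food-restricted pools 1 to 4, against 9.47, 8.97, 34.6 and 27.6 CPM in well-fed pools 1 to 4. The median over the list of log2 CPM minus each gene's mean, which does not weight genes by level, was -0.38 to 0.09 in food-restricted pools, against 0.06 to 0.56 in well-fed pools. Among them MRC1, the mannose receptor, was at 1.29, 1.32, 1.68 and 1.49 CPM in food-restricted pools 1 to 4, against 2.83, 2.29, 2.54 and 3.07 CPM in well-fed pools 1 to 4, without overlap, at a log2 fold change of -0.89 (SE 0.26) with an unadjusted edgeR p of 0.00569 and an edgeR adjusted p of 1. Of 7 tested pericyte and meninges markers 5 were lower, with a median log2 fold change of -0.05. COL3A1, a collagen, was the only 1 of them without overlap. It was at 25.2, 36.1, 33.6 and 37 CPM in food-restricted pools 1 to 4, against 44.2, 46.4, 40.6 and 43.4 CPM in well-fed pools 1 to 4. Its log2 fold change was -0.40 (SE 0.14), with an unadjusted edgeR p of 0.0138. The part of any of these cells in the TAP1 and NLRC5 values was not tested. The 10 T and NK cell markers summed to between 20.6 and 24.6 CPM in food-restricted pools, against 22.1 and 27.0 CPM in well-fed pools. Dendritic cell markers (5 tested) summed to between 23.0 and 24.2 CPM in food-restricted pools, against 20.4 and 22.3 CPM in well-fed pools. The log2 fold changes of these markers lay on both sides of 0, from -0.71 (XCR1) to 0.76 (CD1E), with 4 of 5 higher, and none was without overlap. The median over the list of log2 CPM minus each gene's mean overlapped, at -0.10 to 0.38 in food-restricted pools, against -0.21 to 0.32 in well-fed pools. The 4 tested B and plasma cell markers summed to between 6.11 and 7.81 CPM in food-restricted pools, against 6.30 and 7.97 CPM in well-fed pools, with 2 of 4 lower and a median log2 fold change of 0.02. CD79B, a chain of the B cell receptor, was not tested, with 0 counts in all food-restricted pools, against 3, 0, 0 and 4 counts in well-fed pools 1 to 4. No neutrophil marker had enough reads to be tested. Endothelial markers summed to between 204 and 243 CPM in food-restricted pools, against 203 and 221 CPM in well-fed pools. Within that sum CLDN5 varied by 9.94-fold, at 14.4, 22.7, 3.43 and 4.29 CPM in food-restricted pools 1 to 4, against 2.29, 3.64, 16.1 and 15.2 CPM in well-fed pools 1 to 4. Of the 8 markers it alone had food-restricted pools 1 and 2 and well-fed pools 3 and 4 as its 4 highest, and FLT1 had them as its 4 lowest. Of 2 tested red blood cell markers, 1 was lower and 1 higher. HBB, a globin, was at 0.796, 0.455, 0 and 0.735 CPM in food-restricted pools 1 to 4, against 1.76, 0.910, 3.73 and 1.61 CPM in well-fed pools 1 to 4, without overlap. AHSP, the chaperone of alpha globin, was at 0.656, 0.383, 0.373 and 0.569 CPM in food-restricted pools 1 to 4, against 0.154, 0.702, 0.396 and 0.366 CPM in well-fed pools 1 to 4, with overlap and a log2 fold change of 0.30 (SE 0.58).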

How the data were processed

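The authors deposited 1 table of raw counts, with a column for each pool and a row for each gene, per the file headers. Per the labels' protocols, RNA was extracted with TriReagent and libraries were made with the TruSeq stranded mRNA kit. The tools named, per the submitters' processing notes, are bcl2fastq 2.20 and FastQC, TopHat2 2.1.1 with Bowtie2 2.3.5.1, and SAMtools 1.9 with featureCounts 2.0.0. The sources used here do not give build, annotation or strand setting, and no coordinates are printed. RefSeq names and gene order come from the assembly ARS-UI_Ramb_v3.0, whose table held 28100 of the 33609 gene IDs.

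These counts were filtered in edgeR 4.0.16 (R 4.3.3) by filterByExpr at a minimum count of 10 and a minimum total of 15, which left 18193 genes, then scaled by TMM and compared by the quasi-likelihood F test without covariates. P-values were adjusted by Benjamini-Hochberg over every kept gene, at a threshold of 0.05. Each SE follows from the log2 fold change and its F statistic. Log2 CPM used a prior count of 2. Alternatives were other scalings and filters, blocks, each pool left out, DESeq2 1.42.0 and limma 3.58.1 (voom). Python 3.11.15 drew the figures.

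The members and gene lists were chosen with earlier results of these data known. Values in every pool are given for members with an unadjusted p under 0.05 or no overlap and for up to 4 further members of each role with the smallest p. Up to 4 genes of each other pathway list are named by the same order. IFIT1, PSMB9, IFI44 and other members outside this rule, and CGAS, the interferon genes, MRC1, STAB1, CD79B, XCR1, CD1E, HBB and AHSP, were picked after their values were seen. So were the cell markers LHB, PITX1, CLDN5, FLT1, CD79A, COL3A1 and those named for sharing their highest pools with LHB and PITX1. No pool repeats another: within a group, chi-square over its degrees of freedom ran from 23.9 to 160. They are replicates on the word of the labels, which name no separate animals beyond the mixes, so p-values measure the spread between pools.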

Additional observations from a re-analysis of the deposited data

Results flagged for a closer look

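Of 70 groups of 4 pools checked (33 members and both list levels in each feeding group), 4 had 1 pool far from the other 3 by Dixon's criterion at the 95% level, which chance passes in about 1 of 20 groups. IFIT1 was at 0.866 CPM in food-restricted pool 1, where the other 3 food-restricted pools lay between 4.99 and 5.70 CPM. It was at 2.37 CPM in well-fed pool 4, where the other 3 well-fed pools lay between 5.67 and 6.13 CPM. IRF9 was at 81.3 CPM in well-fed pool 2, where the other 3 lay between 67.4 and 68.6 CPM. The level of the interferon-stimulated genes, as the median over members of log2 CPM minus the member's mean, was -0.223 in food-restricted pool 1, where the other 3 food-restricted pools lay between 0.00565 and 0.033. What sets these pools apart was not tested.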

How the results depend on the processing

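No member passed under any of the 17 alternatives, with edgeR, DESeq2 or limma voom (lowest adjusted p 0.964). Of 561 recomputed member values, 2 moved by more than 1 SE. The median of the interferon-stimulated genes stayed below 0 under all 17, and both list medians moved by less than the SD of their level between pools (0.161 and 0.157). No other scaling moved the median of all tested genes by as much as 0.1. With the USP18 row added the interferon-stimulated median was -0.14, and with both B2M rows summed the antigen presentation median was 0.00. The count of genes called over the whole table was 1 with all pools and 0 without any 1 pool (0 in each of the 8 fits). It was 0 with the replicate block, 6 with a block for principal component side and 4 with DESeq2. Whether the numbers of the pools mark pairs is not known. Same-numbered pools deviated in opposite directions (correlations between -0.42 and -0.207). The best matches of food-restricted pools 1 to 4 were well-fed pools 4, 3, 2 and 1. Same-numbered pools lie on opposite sides of the first principal component for every number, so this check cannot exclude a pairing. With the replicate block the medians were -0.13 and -0.02 and the gap -0.11. Why the counts differ between these settings was not tested. At 4 pools a group, the groups overlapped for every tested member other than TAP1 and NLRC5.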
